A study of Homo sapiens with 63 samples.

Results

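The 46 mRNAs described here encode the proteins of the large (60S) subunit of the cytosolic ribosome. They were chosen by symbol, as the rows named RPL followed by a number, or by a number and the letter A, together with the P stalk genes RPLP0, RPLP1 and RPLP2. They made up 46 of 11074 gene rows, all 46 met the filter on low signal, and each had signal above 0 in every fraction. The rule leaves out paralogs such as RPL22L1 and RPL36AL.

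The cells were HEK293, an established human embryonic kidney line. The log phase group grew in serum-containing medium, the serum starved group had its serum withdrawn for 2 h, and the amino acid starved group spent 1 h in Earle's balanced salts supplied with MEM vitamins and 10% serum. All cells received cycloheximide, which holds ribosomes on mRNA, before lysis, and lysates were separated on polysome gradients. Sequencing of poly(A) RNA covered fractions 3 to 22 and gave 20 fractions from 1 gradient per condition and 60 fraction libraries in all. With 1 gradient per condition no difference below has a replicate check, and none has a p-value. Whether low or high numbers hold the heavier material is not stated in the labels, so mRNAs are placed by fraction number only.

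Ribosomal protein mRNAs are the best known carriers of the TOP tract, or 5′ terminal oligopyrimidine, a cytidine at the start followed by an unbroken run of pyrimidines. When nutrients or growth factors run short, the kinase mTORC1 loses activity and TOP mRNAs leave polysomes, a step in which the cap-proximal binding protein LARP1 takes part. Most large subunit proteins are present once in each ribosome, while the P stalk proteins RPLP1 and RPLP2 form dimers.

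The TOP tract of 8 members is shown because it is the feature the group is known for, in members at both ends of the range of gradient positions. The windows run from 10 bases before the annotated start to 20 bases from it, 5′ to 3′, on the strand of the gene, from the RefSeq promoter table of build GRCh38.p14. Capitals mark the C or T run that begins at the annotated start or, for RPL4 and RPL15, where that start is not a C, the longest such run in the window.
RPL41: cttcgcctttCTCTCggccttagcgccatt
RPL29: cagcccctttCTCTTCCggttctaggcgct
RPL39: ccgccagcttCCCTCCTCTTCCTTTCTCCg
RPLP1: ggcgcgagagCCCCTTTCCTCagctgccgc
RPLP0: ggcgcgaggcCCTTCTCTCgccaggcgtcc
RPL14: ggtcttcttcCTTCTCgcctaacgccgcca
RPL4: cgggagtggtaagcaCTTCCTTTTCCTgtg
RPL15: aaggcattgtgggagtacagCTCTTTCCTT
These windows lie at chr12:56116623-56116652 (RPL41, plus strand), chr3:51995876-51995905 (RPL29, minus), chrX:119791611-119791640 (RPL39, minus), chr15:69452808-69452837 (RPLP1, plus), chr12:120201092-120201121 (RPLP0, minus), chr3:40457329-40457358 (RPL14, plus), chr15:66504836-66504865 (RPL4, minus) and chr3:23917122-23917151 (RPL15, plus). The run was 5 bases long in RPL41 and 19 bases long in RPL39.

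The table held a promoter entry for 38 members. A C at the annotated start with at least 5 C or T bases in a row from it, searched on the gene's strand only, was present in 28 of these 38 (73.7%). The same feature was found in 18 of 24 small subunit protein genes (75%) and in 3 of 42 mitochondrial large subunit protein genes (7.14%). It was found in 668 of the 8699 tested genes with an entry (7.68%) and in 5.14% of all 27305 genes of the table. The 28 members with the feature had a median shift, the move defined below, of -2.79 fractions without serum, and the 10 members whose entry lacked it had -3.57. Without amino acids these medians were -2.88 and -3.81. Annotated starts can miss the start used in these cells, so a missing tract says only that the letters are not at that base.

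The mRNAs of the large subunit were among the most abundant in every gradient. Summed over fractions, they held 22.3% of the log phase gene signal, 28.0% of that without serum and 30.4% of that without amino acids, and 44, 46 and 46 of them stood among the 100 highest gene levels. The fraction totals of all genes ran from 36830.5 to 66981600 in log phase, and the sources used here do not give the scale that the authors applied to each fraction. Positions and levels carry that scale, whereas shares within a fraction do not. Of the markers checked for the line, VIM, KRT8, KRT18, NEFL, NEFM and INA were all listed, and the blood, liver, red cell and fibroblast markers PTPRC, ALB, HBB and COL1A1 were not listed.

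On the deposited scale, most members had their highest signal in fractions 16 to 20 in growing cells, and all 46 had it in fraction 9 or 10 in both starved gradients. The total of all genes was itself highest in fraction 18 in log phase and in fraction 9 in each starved gradient. The signal of 27 members peaked in fraction 18 in log phase, that of 14 in fraction 16, that of RPL5 and RPL8 in fraction 20, and that of RPL23A, RPL29 and RPL41 in fraction 9. Without serum all 46 peaked in fraction 9. Without amino acids 38 peaked in fraction 9 and 8 in fraction 10, namely RPL9, RPL17, RPL23, RPL24, RPL26, RPL27, RPL31 and RPL35A. Of all tested genes 36.5% peaked in fraction 18 and 35.4% in fraction 16 in log phase, 9.99% peaked in fraction 9 without serum, and 9.29% peaked in fraction 9 or 10 without amino acids. In fractions 8 to 12 as 1 window 3, 46 and 46 members peaked, against 2.32%, 17.4% and 16.9% of all tested genes. With every fraction given the same total these counts were 19, 14 and 21, against 10.1%, 5.73% and 1.46% of all tested genes. On that scale the move of the peak into these fractions was not seen without serum. Without amino acids the count rose only from 19 to 21. The members that then peaked in fractions 18 to 22 were 9 in log phase and 0 in each starved gradient, against 44.7%, 59.8% and 51.8% of all tested genes. In fraction 3 they were 11, 25 and 19, against 2.38%, 1.02% and 1.19%.

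The median member had 36.0% of its own signal in fractions 18 to 22 in log phase, against 11.4% without serum and 5.96% without amino acids. In fractions 8 to 12 it had 13.8%, 59.7% and 70.3%. The median of all tested genes in fractions 8 to 12 was 7.17%, 22.5% and 23.1%. On the deposited scale, a move of the same direction and smaller size was thus present in the gene set as a whole. With every fraction given the same total, tested genes moved the other way. Their median change of signal-weighted mean fraction number was then 1.55 without serum and 1.72 without amino acids, to higher numbers.

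**Figure D1:**
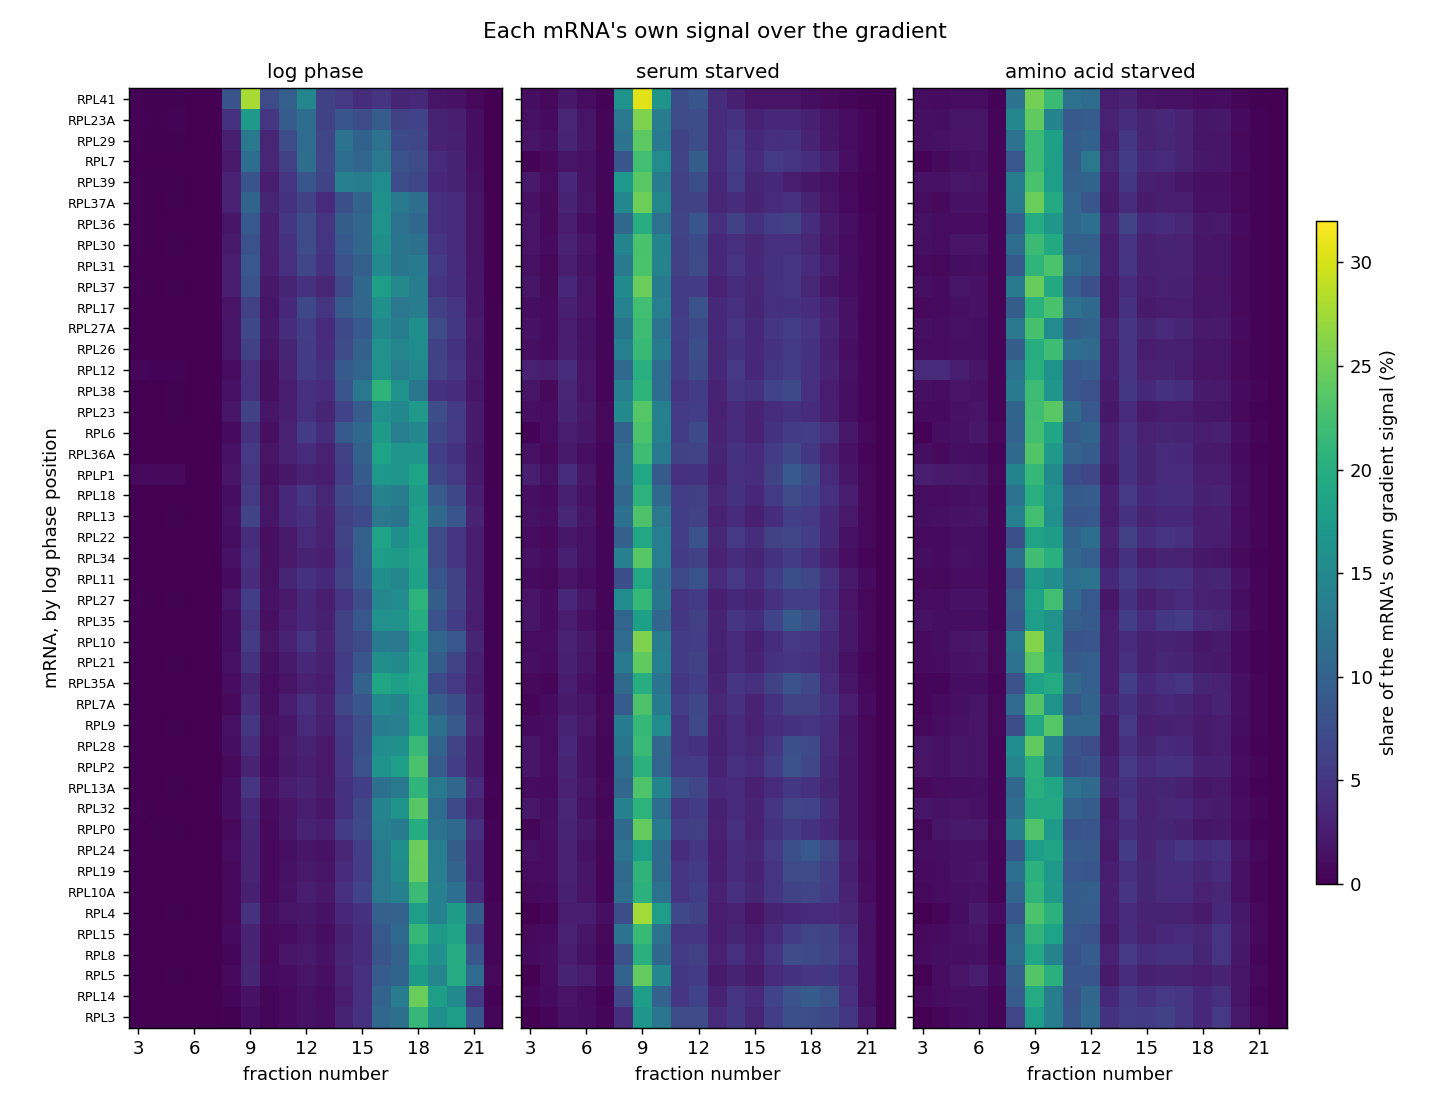
Share of each mRNA's own signal (color, %) in fractions 3 to 22 of the 3 gradients, with 45 of the 46 large subunit protein mRNAs drawn, ordered by log phase position from RPL41 to RPL3. Log phase signal runs from fraction 9 for RPL41 to fractions 18 to 20 for RPL3, and in the starved gradients all 45 are brightest at fraction 9 or 10.

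The position of an mRNA, its mean fraction number weighted by signal, summarises such a profile. Member positions ran from 11.73 to 17.83 in log phase (median 16.02, SD 1.21 over 46 mRNAs). Without serum they ran from 10.11 to 13.18 (median 11.45, SD 0.62), and without amino acids from 10.29 to 12.29 (median 10.99, SD 0.42). The range over members was thus narrower in the starved gradients than in log phase. The medians of all 10889 tested genes were 16.94, 15.62 and 15.12. In log phase the highest positions were those of RPL3 (17.83), RPL14 (17.66), RPL5 (17.62), RPL8 (17.56) and RPL15 (17.52), and the lowest those of RPL41 (11.73), RPL23A (13.14), RPL29 (13.73), RPL7 (14.02) and RPL39 (14.30). Odd-numbered and even-numbered fractions, taken apart as a reading of the spread inside a gradient, gave RPL41 a log phase position of 11.2 and 12.3 and RPL3 one of 17.8 and 17.8. Part of the order seen in log phase was still present after starvation. Across the 46 mRNAs, log phase positions correlated with those without serum at Pearson's r = 0.71 (Spearman's rho 0.64) and with those without amino acids at r = 0.57 (rho 0.54). Genes of 1 gradient share its libraries and its scale, and are not independent replicates.

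**Figure D2:**
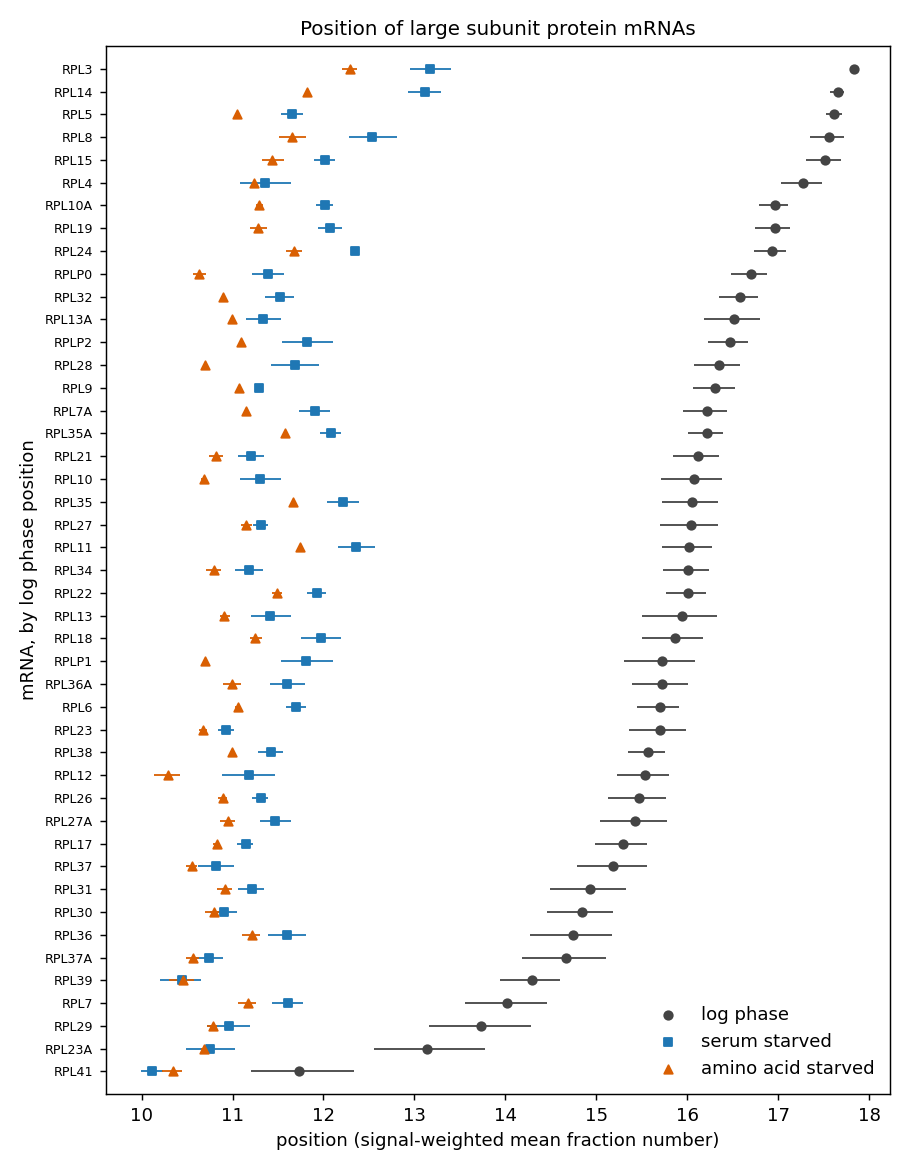
Position (signal-weighted mean fraction number) of 45 of the 46 mRNAs in the 3 gradients, ordered by log phase position; bars span the values from odd and from even fractions. Log phase positions lie between 11.73 and 17.83, and starved positions between 10.11 and 13.18.

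A shift is the change of position from log phase to a starved gradient, less the median change of the tested genes (-1.35 without serum, -1.80 without amino acids). By a rule of size, which is not a test, an mRNA was lower where its shift was -1 or below, with -0.5 or below in odd fractions and in even fractions alone. Without serum 45 of the 46 members were lower and 0 higher, against 9.86% and 5.7% of all tested genes, with a median of -3.01 (odd -3.14, even -2.85). Without amino acids 44 of 46 were lower and 0 higher, against 9.57% and 6.84%, with a median of -3.22 (odd -3.10, even -3.18). The members outside the rule were RPL41 in both, and RPL23A without amino acids. Both comparisons use the same log phase gradient. Weighting fractions by log2 signal instead of signal removed the calls, with medians of 0.08 and 0.13 and no member lower. With that weight the median member still moved from position 13.3 to 12.3 and 12.2, and the median tested gene moved by -1.11 and -1.22.

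Within each fraction, the share of gene signal taken by the 46 mRNAs does not depend on any scale between fractions. It is relative, so it also changes when other genes move or when the members' part of the whole gradient differs. In log phase this share was 35.7% in fraction 8, 22.8% in fraction 18 and 12.6% in fraction 22. Without serum it was 40.8%, 18.4% and 9.24% in the same fractions, and without amino acids 41.2%, 16.9% and 7.86%. The share was above log phase in all 13 fractions from 3 to 15 and below it in all 7 from 16 to 22 without serum. Without amino acids it was above in the 12 from 3 to 14 and below in the 8 from 15 to 22. The largest gains were in fraction 6, at 12.7 percentage points without serum and 14.4 without amino acids. In log phase that fraction had the lowest gene total (36830.5) and held 0.008% of the members' median profile. The largest losses were 5.52 points in fraction 20 without serum and 6.70 points in fraction 17 without amino acids. Leaving RPL41 out changed none of these directions.

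**Figure D3:**
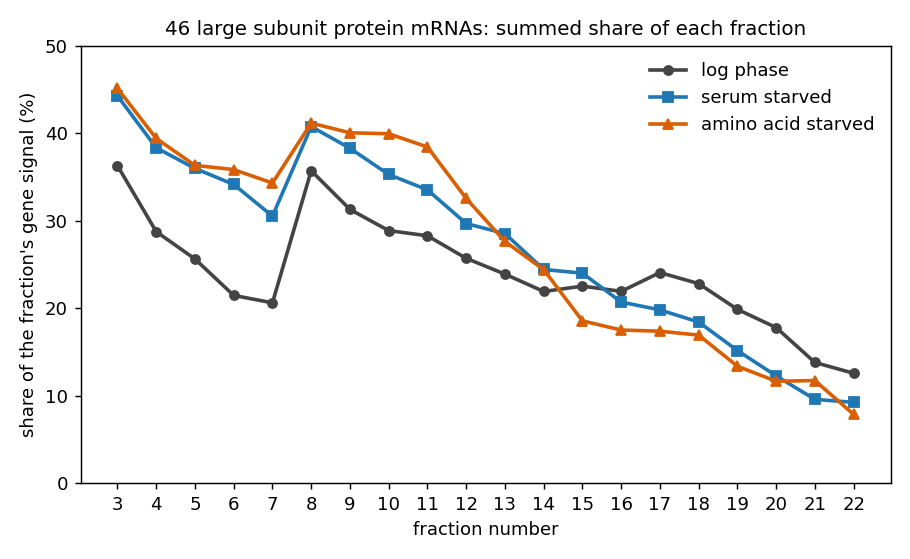
Summed share (%) of the 46 mRNAs in the gene signal of each fraction, by fraction number, in the 3 gradients. The starved lines lie above log phase up to fraction 14 or 15 and below it from fraction 15 or 16 on.

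The mRNAs of the P stalk and its base, where translation factors dock on the large subunit, moved to lower-numbered fractions in both starvations. RPLP0, the stalk's scaffold, stood at position 16.70 in log phase, against 11.39 without serum and 10.63 without amino acids, with shifts of -3.96 and -4.27. RPLP1 stood at 15.72, 11.81 and 10.69, with shifts of -2.56 and -3.23. Its partner RPLP2 stood at 16.47, 11.82 and 11.09, with shifts of -3.30 and -3.58. RPL12, which forms the base of the stalk, stood at 15.54, 11.18 and 10.29, the last of these being the lowest member position of the amino acid starved gradient.

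RPLP1 differed from its neighbours at the low-numbered end of the log phase gradient. It took 50815 per 1000000 of the gene signal of fraction 3, against 25812 for the next member, RPL32, and it was the highest member in each of fractions 3 to 7. In fraction 3 it had 18828 per 1000000 without serum and 22226 without amino acids. Fractions 3 to 7 held 2.51% of RPLP1's log phase signal, so they weigh little in its position. With every fraction given the same total, in which these fractions weigh more, the shift of RPLP1 became 1.08 without serum and 0.03 without amino acids, opposite in sign to the value above.

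The 5S particle, a pair of proteins that bind the 5S rRNA and also inhibit the p53 regulator MDM2 when free, held unlike mRNAs. RPL5 was at 17.62 in log phase, against 11.65 without serum and 11.05 without amino acids, with shifts of -4.62 and -4.77, the lowest of all members in both. RPL11 was at 16.02, 12.36 and 11.74, with shifts of -2.31 and -2.48. Within fractions, RPL5 in log phase had 7462 per 1000000 in fraction 20 and 3018 in fraction 9. Without serum it had 4381 and 8416, and without amino acids 3776 and 8793, so the order of these fractions turned. RPL11 was thus less displaced than RPL5 although the proteins enter the ribosome together.

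Of the proteins of the core near the peptidyl transferase centre, the RNA site of peptide bond formation, RPL3, RPL4 and RPL8 had mRNAs with log phase positions from 17.27 to 17.83, while that of RPL10 was close to the member median. RPL3 moved from 17.83 to 13.18 and 12.29 and kept the highest position of all members in each gradient, with shifts of -3.30 and -3.74. RPL4 moved from 17.27 to 11.35 and 11.24, with shifts of -4.57 and -4.24. RPL8 moved from 17.56 to 12.54 and 11.65, with shifts of -3.67 and -4.11. RPL10, the late-joining protein whose arrival makes the subunit active, moved from 16.08 to 11.30 and 10.68, with shifts of -3.42 and -3.60. RPL10A, the protein of the mobile L1 stalk on the other side of the subunit, moved from 16.97 to 12.01 and 11.29, with shifts of -3.60 and -3.87.

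Around the exit of the peptide tunnel, where chaperones and targeting factors meet the nascent chain, the 8 mRNAs covered a wide range. RPL19 had the highest log phase position of them (16.96) and moved to 12.07 and 11.28, with shifts of -3.54 and -3.88. RPL23A, the docking site of the signal recognition particle, had the lowest (13.14) and moved to 10.75 and 10.69, with shifts of -1.04 and -0.66. RPL39, a very small protein of the tunnel wall, was at 14.30, 10.44 and 10.45, with shifts of -2.51 and -2.05. RPL17, RPL22, RPL26, RPL31 and RPL35 lay between, with log phase positions from 14.93 to 16.05 and shifts from -2.81 to -2.21 over both starvations. The call for RPL23A without serum was lost with fractions scaled to spike-in RNA (-0.57), with the outermost fractions left out (-0.89), and with any 1 of 9 of the 20 fractions left out (-0.99 to -0.77).

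The other 27 members sit elsewhere on the subunit. Their shifts had medians of -3.02 and -3.10 and reached up to -0.26 and 0.42. RPL15 (-4.16 and -4.28) was among the lowest, and RPL13A (-3.83 and -3.73), a protein also known for silencing of inflammatory transcripts, was close to it. The highest were RPL41 (-0.26 and 0.42), RPL7 (-1.06 and -1.06), RPL29 (-1.43 and -1.15) and RPL36 (-1.80 and -1.73). The calls of RPL7 were lost with fractions scaled to spike-in RNA (-0.70 and -0.76), with any 1 of fractions 15 to 20 left out (up to -0.85 and -0.72) and, without serum, with the outermost fractions left out (-0.98). The call of RPL29 without amino acids was lost with spike-in scaling (-0.86) and with any 1 of fractions 16 to 19 left out (up to -0.79). The rest of these mRNAs passed the size rule in both starvations. RPL13, the member with the highest log phase level, had shifts of -3.17 and -3.23, and RPL32, the next highest, had -3.72 and -3.89. RPL9 (-3.66 and -3.44), RPL21 (-3.56 and -3.49), RPL34 (-3.48 and -3.41), RPL23 (-3.41 and -3.22), RPL27 (-3.38 and -3.10), RPL28 (-3.32 and -3.85) and RPL24 (-3.23 and -3.46) were beyond -3 in each. RPL30 (-2.59 and -2.25), RPL37A (-2.57 and -2.30), RPL27A (-2.61 and -2.68), RPL6 (-2.65 and -2.84), RPL18 (-2.54 and -2.81), RPL35A (-2.79 and -2.84) and RPL38 (-2.80 and -2.77) were short of it. RPL37 (-3.02 and -2.84) and RPL7A (-2.97 and -3.28) fell on either side of that value.

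RPL14 had a shift of -3.20 without serum and -4.04 without amino acids. Between the starvations, RPL14 had the largest shift to lower numbers (-0.83) and RPL41 the largest to higher (0.70), and the median of the 46 was -0.03. None of the 46 passed the size rule in either direction between the starvations, against 1.06% lower and 2.01% higher of all tested genes.

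RPL41, RPL23A, RPL29 and RPL7 had a pattern within fractions that was opposite to that of most other members. RPL41 encodes the smallest ribosomal protein, a short basic peptide at the subunit interface. In log phase it already had 67.9% of its signal in fractions 8 to 12, against 79.8% without serum and 82.5% without amino acids. In fraction 8 it took 49316 per 1000000 of the gene signal in log phase, against 20004 without serum and 16296 without amino acids. In fraction 20 it took 922 per 1000000 in log phase, against 960 without serum and 1850 without amino acids. Its part of the summed member signal ran in log phase from 13.8% in fraction 8 to 0.48% in fraction 19, and without serum from 4.91% in fraction 8 to 0.78% in fraction 20. The gradient of RPL41 against the other members was thus flatter in starved cells.

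For many members the fractions told the reverse, though in all of fractions 18 to 22 this held for most of them only without serum. In all 5 of fractions 18 to 22, 37 of 46 members were lower per 1000000 than in log phase without serum and 21 of 46 without amino acids, against 9.9% and 10.2% of all tested genes. In all 5 of fractions 8 to 12, 29 of 46 were higher without serum and 26 without amino acids, against 6.02% and 3.61%, while 9 and 6 of 46 were lower there, against 40.9% and 56.9%. In all 5 of fractions 3 to 7, 36 and 39 of 46 were higher, against 1.05% and 1.51%. In log phase these fractions had gene totals of only 36830.5 to 469803. Each held at most 0.12% of the members' median profile there. Higher in all 5 of fractions 18 to 22 were RPL7, RPL23A, RPL29, RPL41 and RPLP1 without serum, and RPL7, RPL23A, RPL29, RPL36 and RPL41 without amino acids. That is 5 of 46 in each, against 36.6% and 35.9% of all tested genes. The members together are a large part of each fraction, and a fall in them raises the others' values. Taken per 1000000 of the signal of all other genes, the counts in fractions 18 to 22 were 39 lower and 3 higher without serum (12.8% and 31.3% of all tested genes), and 25 lower and 4 higher without amino acids (13.5% and 31.3%). RPL41 and RPLP1 then no longer stood among the higher ones without serum.

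**Figure D4:**
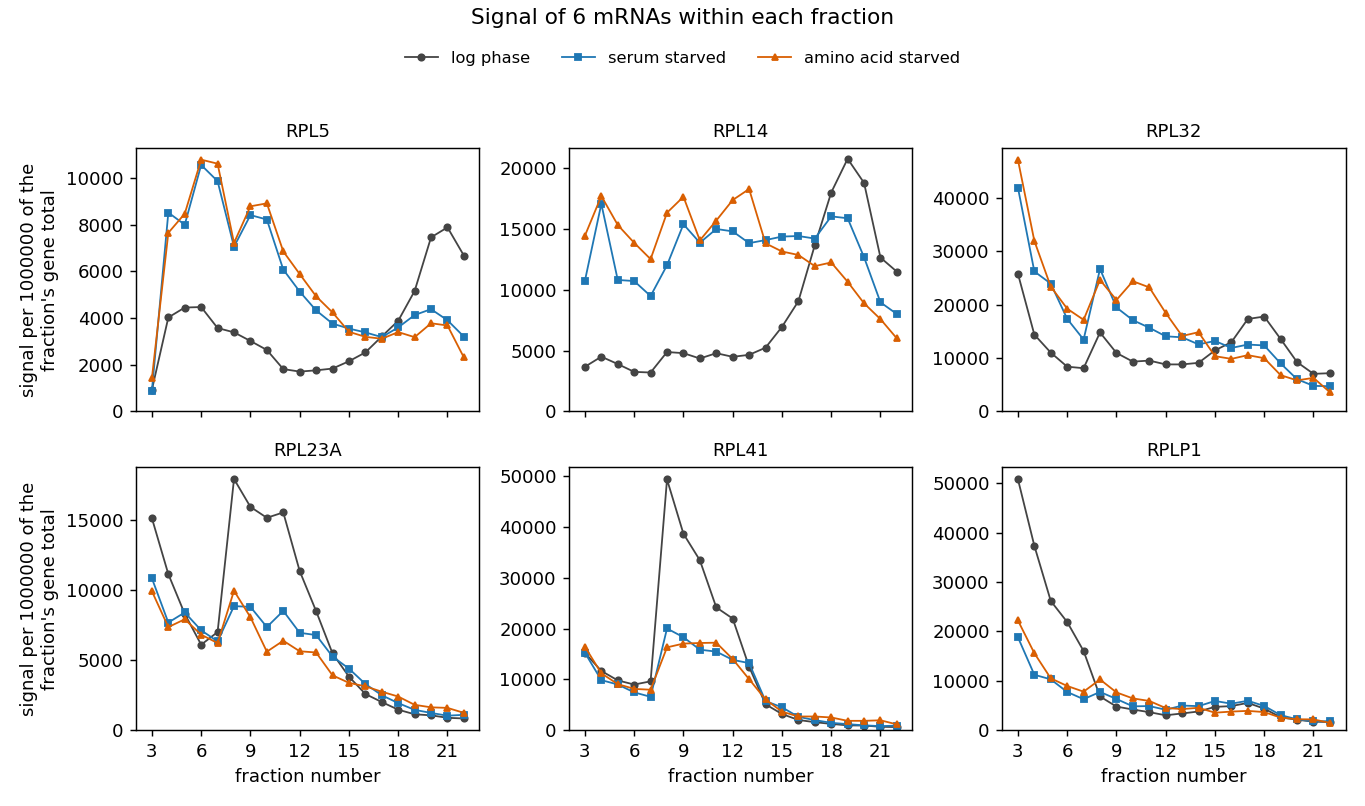
Signal of RPL5, RPL14, RPL32, RPL23A, RPL41 and RPLP1 in each fraction, per 1000000 of that fraction's gene total, in the 3 gradients; the vertical axes differ. RPL5 and RPL14 lose height at fractions 19 to 21, RPL41 and RPL23A lose height at fraction 8, and RPLP1 loses height at fraction 3.

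The log2 ratio of the mean per 1000000 in fractions 18 to 22 over that in fractions 8 to 12 puts this in 1 value per mRNA. The median member had a ratio of -0.73 in log phase, against -1.57 without serum and -1.80 without amino acids. Its change was -0.81 without serum and -0.86 without amino acids, where the median tested gene changed by 0.71 and 1.19. The change was below 0 for 41 and 38 of the 46 members, against 16.4% and 8.31% of all tested genes. It was lowest for RPL3 (-2.51 and -2.74), followed in the serum comparison by RPL5 (-2.17 and -2.51) and in the amino acid comparison by RPL14 (-2.02 and -2.65). It was highest for RPL41 (1.27 and 2.11), RPL23A (1.23 and 1.78), RPL7 (0.99 and 1.13) and RPL29 (0.94 and 1.26). These 4 also had the lowest log phase positions, and log phase values enter both quantities. RPL39, the next in position, changed by -0.31 without serum and 0.23 without amino acids.

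**Figure D5:**
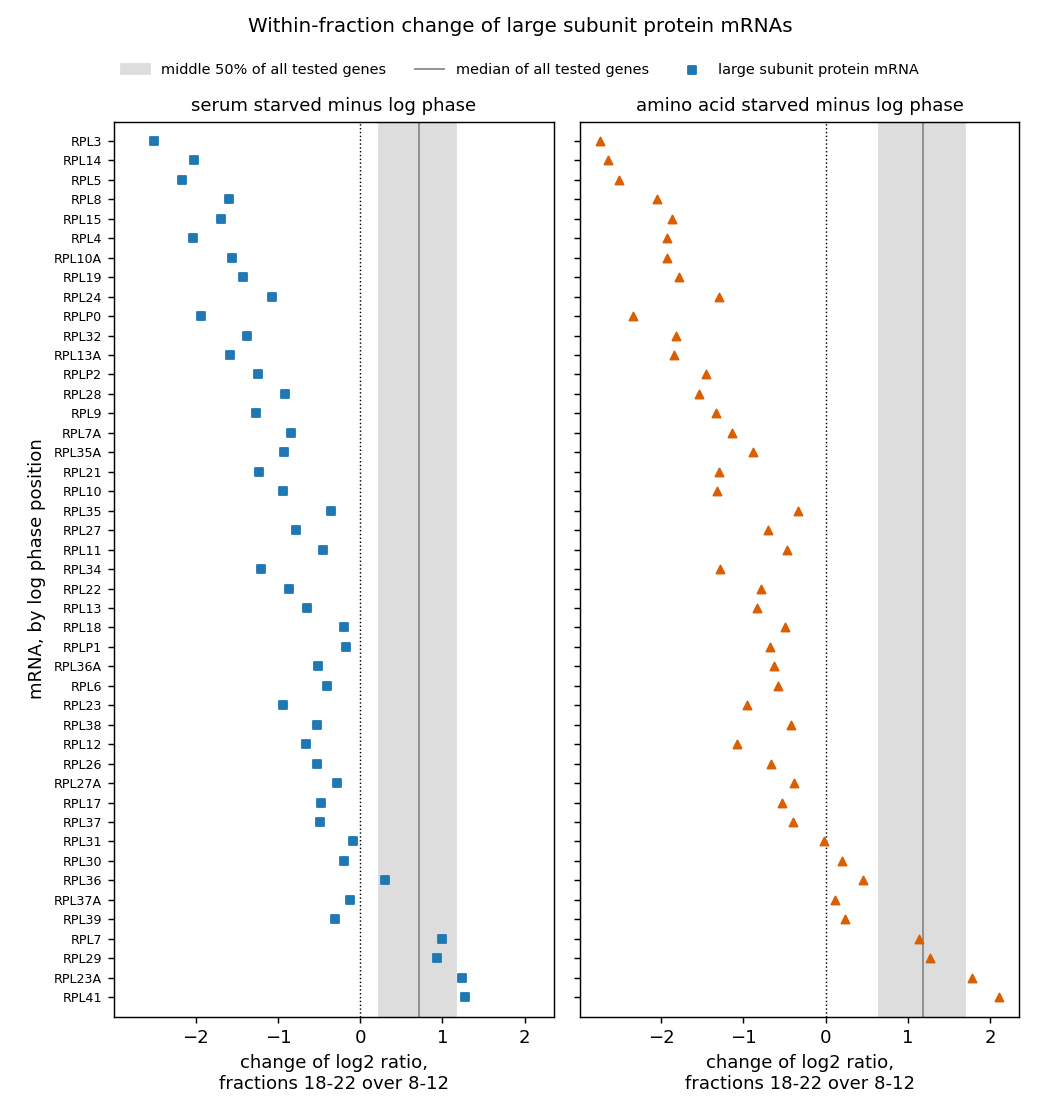
Change, for 45 of the 46 mRNAs, of the log2 ratio of signal in fractions 18 to 22 over fractions 8 to 12 (per 1000000 of each fraction), without serum and without amino acids against log phase, ordered by log phase position; the band holds the middle 50% of tested genes and the line their median. RPL3 is lowest at -2.51 and -2.74 and RPL41 highest at 1.27 and 2.11, while the line lies at 0.71 and 1.19.

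The makeup of the member signal also changed along the gradient. In log phase the highest member per 1000000 was RPLP1 in fractions 3 to 7, RPL41 in fractions 8 to 12, RPL13 in 13 and 14, RPL23 in 15, RPL32 in 16 and 17, and RPL14 in 18 to 22. In the starved gradients neither RPLP1 nor RPL41 was highest in any fraction, and the place was taken by RPL13, RPL14, RPL15, RPL23 or RPL32. RPL14 was the highest in fractions 15 to 22 without serum, with 16050 per 1000000 in fraction 18 against 18014 in log phase. Without amino acids it had 12257 per 1000000 there.

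Summed over the gradient, every member had a higher level, relative to the median gene, in both starvations, as 50% of genes did by the centring. Levels per 1000000 of the gradient's total ran in log phase from 1248 for RPL28 to 13635 for RPL13. The median log2 difference was 0.75 without serum and 1.04 without amino acids, after subtraction of medians over genes of -0.43 and -0.59. Past a rule of 1 on the log2 scale, with 0.5 in odd and even fractions, were RPL13A (1.06) and RPL41 (1.18) without serum, 2 of 46 against 3.06% of genes. Without amino acids 25 of 46 passed, against 4.96%, led by RPL41 at 1.50. With every fraction given the same total the medians were 0.34 and 0.42, so these sizes follow the scale of the fractions. These levels are parts of the gene signal summed over 1 gradient, not amounts of RNA. On the deposited scale the members' summed signal itself was 8.70e+07 in log phase, against 4.57e+07 without serum and 5.57e+07 without amino acids. In such levels, more member RNA per cell, a larger part of cells that hold it and less signal of other genes cannot be told apart.

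Small subunit protein mRNAs, the nearest relatives of the members, gave medians close to theirs. Their median shifts were -3.06 and -3.11, and 31 of 31 were lower in both starvations, against 9.86% and 9.57% of all tested genes. The lowest were RPS6 (-4.19 and -4.30), with RPS3A (-4.08) without serum and RPSA (-4.23) without amino acids, and the highest were RPS15 (-1.55 and -1.52) and RPS26 (-1.70 and -1.61). The 10 other genes whose profiles overlapped most with the median profile of the members, averaged over the 3 gradients, were all of the small subunit, with RPS16 (97.0%) the nearest and RPS15A (94.0%) the last, and with RPS23, RPS27A, RPS20, RPS24 and RPS13 among those between. Overlap here is the sum over the 20 fractions of the smaller of the 2 shares of own signal, and of the nearest 50 genes 28 were of the small subunit. The ratio of summed large to summed small subunit signal was not even along the gradient. In fractions 3 to 7 it was 0.77 to 0.86 in log phase, 1.03 to 1.15 without serum and 1.08 to 1.20 without amino acids. In fractions 18 to 22 it was 1.54 to 1.74, 1.67 to 1.76 and 1.52 to 1.60. The log phase and starved ranges did not overlap at the low-numbered end, where each log phase fraction held at most 0.12% of the members' median profile.

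Other TOP mRNAs, many of them translation factors, had median shifts of -2.80 and -2.90, with 29 and 28 of 31 lower, against 9.86% and 9.57% of all tested genes. Their lowest shifts were those of EEF1A1 (-5.23 and -4.99), PABPC1 (-4.81 and -4.93) and RACK1 (-4.73 and -5.10), and their highest those of TMEM160 (-0.0039 and -0.23), EIF3K (-0.80 and -1.41) and NACA (-1.13 and -0.92). The lists of mitochondrial large subunit proteins and of 60S assembly factors, tied to the large subunit by name or function, had medians near the median gene. A part of the TOP tract in this was not tested. For the counts that follow, the shares of all tested genes were 9.86% and 9.57% lower, and 5.7% and 6.84% higher. The mRNAs for proteins of the mitochondrial large subunit, which serve the separate ribosome of that organelle, had medians of 0.11 and -0.01, with 2 and 3 of 49 lower and 1 and 0 higher, from MRPL10 (-1.27 and -1.91) and MRPL45 (-1.38 and -1.56) to MRPL24 (1.10 and 0.97). Those of factors that assemble the 60S subunit had medians of -0.02 and -0.20, with 2 and 6 of 39 lower and 4 and 3 higher, from RSL1D1 (-1.97 and -2.40) to EBNA1BP2 (1.75 and 1.82) and SBDS (1.31 and 1.63). Of 17 genes of mTORC1 signalling and LARP1, 4 and 2 were lower, with RPS6KB2 (-2.36 and -1.98) and MLST8 (-1.31 and -1.24) lowest, and the cap-binding protein EIF4E was higher (1.56 and 2.68).

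The 4 paralogs had smaller shifts than the members they copy. RPL22L1, the copy of RPL22, moved from 14.77 to 12.17 and 12.00, with shifts of -1.26 and -0.97, of which the serum value passed the size rule. RPL36AL had shifts of -0.38 and -0.18, RPL39L -0.07 and 0.13, and RPL26L1 0.32 and 0.43. The counterparts RPL22, RPL36A, RPL39 and RPL26 had shifts of -2.73, -2.77, -2.51 and -2.81 without serum and of -2.72, -2.92, -2.05 and -2.77 without amino acids. Ribosomal protein genes have many processed pseudogenes and near copies, and RPL36A and RPL36AL are nearly alike, so the values of both depend on how the authors' quantification divided shared reads.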

How the data were processed

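Values are the deposited signal, 1 value per gene symbol and fraction, which the authors made with kallisto 0.44.0 and sleuth 0.29.0 on hg38, per the submitters' processing notes. The table is named TPM, but its columns do not sum to a common total, so each fraction carries a further scale, whose source is not stated, and depth is unknown. The 29 spike-in rows and 1 luciferase row were kept out of gene totals. The filter on low signal kept 10889 genes, with a mean of at least 5 per gradient and signal above 0 in 15 of 20 fractions. Positions, shifts, levels (log2, pseudocount 1) and shares were computed in Python 3.11.15 with pandas 2.3.3. The shift rule was tested on simulated data, made from log phase profiles with noise added to each value. That simulation held no change of fraction scale and no variation between gradients, so it cannot speak to those limits. The naming rule took every member, the 2 lowest and 2 highest shifts of each comparison list, all 4 paralogs and the 10 nearest profiles; some of these genes are not reported here, though counts and medians include them. Members, roles and lists were chosen with earlier results of these data known. Promoter sequences are RefSeq's. A comparison with protein length was planned and not run, and 3 lysate libraries were not used here.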

Additional observations from a re-analysis of the deposited data

Results flagged for a closer look

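RPL41 was the 1 member whose shift had opposite signs in the starvations, at -0.26 without serum and 0.42 without amino acids. Neither value passed the size rule, each condition had 1 gradient, and the difference was not tested. Without the centring both values were negative on the deposited scale, at -1.61 and -1.38. With every fraction given the same total the centred values were -1.33 and -1.38, and both passed the size rule. The median changes subtracted there were 1.55 and 1.72, larger in size, so before centring RPL41 moved to higher numbers on that scale. On the deposited scale with centring, leaving out 1 fraction could turn either sign. Without fraction 16 the value without serum was 0.027, and without fraction 9 the value without amino acids was -0.30. Over the 20 fractions left out in turn, the values ran from -1.04 to 0.027 without serum, where the lowest, without fraction 9, passed the size rule, and from -0.30 to 0.79 without amino acids.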

How the results depend on the processing

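The main limits are 1 gradient per condition and a scale per fraction that is unknown, so odd against even fractions is the only spread at hand. No paired analysis was possible because each group holds 1 sample. The comparison of position with protein length was not run. The alternatives with the members left out of the fraction total, the shares without RPL41, and the alternatives for the peak fractions were chosen after seeing the data.

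The call of a shift to lower-numbered fractions depends on weighting by signal. With log2 signal as weight the median shift was 0.079 without serum, 0.13 without amino acids and 0.034 between the starvations, no member passed the rule (0 and 0 of 46), and median positions were 13.3, 12.3 and 12.2. Shifts then were above 0 for 35 members that had passed the rule without serum: 0.0086 for RPL21, 0.016 for RPL19, 0.022 for RPL17, 0.023 for RPL24, 0.033 for RPLP0, 0.051 for RPL9, 0.054 for RPL11, 0.059 for RPL35, 0.061 for RPL13A and RPL30, 0.067 for RPL7A, 0.072 for RPL27, 0.079 for RPL15, 0.080 for RPL38 and RPL4, 0.086 for RPL10, 0.093 for RPL6, 0.096 for RPL27A, 0.10 for RPL26, 0.11 for RPL32, 0.12 for RPL18, RPL35A, RPL36A, RPL37 and RPL39, 0.13 for RPL31, 0.15 for RPL23, 0.16 for RPL12 and RPL37A, 0.21 for RPL36, 0.22 for RPL13, 0.26 for RPL7, 0.28 for RPL29, 0.37 for RPL23A, 0.47 for RPLP1. Without amino acids they were above 0 for 36 members that had passed the rule, among them at 0.0033 for RPL22, 0.011 for RPL34, 0.034 for RPL19, 0.056 for RPL21, 0.071 for RPL24, 0.072 for RPL7A, 0.079 for RPL17, 0.090 for RPL10, 0.097 for RPL12, 0.10 for RPL11 and RPL6, 0.11 for RPL13A, 0.12 for RPL32, 0.13 for RPL15, RPL27A, RPL35 and RPL9, 0.14 for RPL4, 0.15 for RPL18 and RPL26, 0.16 for RPL30, RPL36A and RPL38, 0.18 for RPL27, 0.19 for RPL37, 0.20 for RPL35A, 0.21 for RPL31, 0.23 for RPL23 and RPL39, 0.26 for RPL13 and RPL37A, 0.28 for RPL36, 0.30 for RPL7, 0.37 for RPL29, 0.44 for RPLP1. With every fraction given the same total, and with centring, RPLP1 was at 1.08 and 0.028 and RPL41 at -1.38 without amino acids. On the deposited scale without centring RPL41 was also at -1.38.

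Equal fraction totals gave 19, 14 and 21 members with a peak in fractions 8 to 12 (log phase first, then the serum and the amino acid starved gradient), median positions of 11.7, 10.2 and 10.1, median shifts of -3.13 without amino acids and -0.21 between the starvations, where 3 members passed the rule, and level differences of 0.34, 0.42 and 0.011. Spike-in scaling gave 5 members with such a peak in log phase, positions of 11.9 and 11.4 in the starved gradients, shifts of -2.97 without amino acids and -0.078 between the starvations, and level differences of 0.47 and 0.62. Without centring the shifts were -4.36, -5.02 and -0.50, with 2 members past the rule between the starvations, and levels 0.32 and 0.46. The fraction at which 50% of the signal is reached gave shifts of -5.30, -4.78 and 0.74. Without the outermost fractions the amino acid starved position was 11.1 and the shifts without amino acids and between the starvations were -3.11 and -0.18. Odd fractions gave -3.10 without amino acids. A pseudocount of 10 gave a level difference of 0.59 without serum. The log2 ratio of fractions 17 to 21 over 7 to 11 was -0.37 in log phase and -1.50 without amino acids, and the total without members gave -2.004 and -2.31 in the starved gradients.

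Leaving out each fraction in turn gave median positions of 15.6 to 16.4, 11.1 to 12.2 and 10.8 to 11.5, shifts of -3.27 to -2.83, -3.53 to -2.87 and -0.16 to 0.11, 43 to 46 and 42 to 45 members lower, 2 to 4 members with a peak in fractions 8 to 12 in log phase and 46 in each starved gradient, and level differences of 0.55 to 0.88, 0.84 to 1.19 and 0.20 to 0.36.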
